A study of Homo sapiens with 23 samples.

Results

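SEMA6A and DCC are a pair of axon guidance genes whose levels were followed in thalamus organoids (ThOs), 3-dimensional cultures of human stem cells guided towards thalamic tissue. They were picked by name out of the 9497 genes listed for each RNA-seq library, and both were listed in all 12 libraries. SEMA6A was picked because its value was lower in the KO than in the WT ThOs at day 25, so that difference is described here and not tested. The ThOs came from the H1 embryonic stem cell line. WT ThOs came from unedited H1 cells. KO ThOs came from H1 cells after CRISPR/Cas9 editing of JUN, the gene of the AP-1 subunit c-JUN. The third group, called OE here and H1cJunKO+cJun in the labels, had c-JUN expressed again in the KO cells, which the study did with a tet-on system switched on by doxycycline. All 3 groups went through the same neural differentiation and thalamus organoid induction, and each was collected at day 25 and at day 30, with 2 libraries per group and day and 3 pooled ThOs per library. The study describes a pair of KO clones, and the labels do not say which of them gave these libraries or whether the replicates came from separate inductions, so p-values measure only the spread between these libraries. A further 11 samples, made by ATAC-seq or CUT&Tag, were not used here.

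SEMA6A encodes a transmembrane class 6 semaphorin, a repulsive cue that acts mainly through the plexin-A receptors PLXNA2 and PLXNA4 on neighbouring cells and can itself signal as a receptor. In mice that lack Sema6a, thalamocortical axons are misrouted ventrally. DCC encodes the netrin receptor that mediates attraction to netrin-1, and also binds draxin. Its relative neogenin (NEO1) binds the repulsive guidance molecules RGMA and RGMB, and receptors of the UNC5 family turn the netrin response into repulsion. Netrin-1, DCC and the SLIT and ROBO proteins take part in steering thalamic axons towards the cortex.

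SEMA6A (ENSG00000092421) lies on the minus strand of chromosome 5, from 116443555 to 116574823 on GRCh38, and DCC (ENSG00000187323) on the plus strand of chromosome 18, from 52340197 to 53535903. No other listed gene overlapped either of them. Since the study perturbs a subunit of AP-1, the promoter of DCC was read for AP-1 motifs on both strands. The 250 bases before the start of DCC (RefSeq, GRCh38.p14, chr18:52339947-52340196, plus strand) are shown with the AP-1 half-site TGACT in capitals.
DCC: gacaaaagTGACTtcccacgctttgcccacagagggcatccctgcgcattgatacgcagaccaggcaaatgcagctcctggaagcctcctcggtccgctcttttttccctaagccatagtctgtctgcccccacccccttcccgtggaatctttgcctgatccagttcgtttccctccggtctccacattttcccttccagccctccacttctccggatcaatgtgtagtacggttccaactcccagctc
This window was 56% G and C and held 1 half-site, at position 9 from its 5′ end, and such a half-site occurs in 33% of the 35116 promoter windows of the same length. None of the full motifs searched was in it: TGANTCA, which 6.57% of the windows hold, TGACGTCA, held by 1.65%, or TGACATCA, held by 2.37%. A match describes letters only, and its absence says nothing of binding elsewhere.

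The values in the tables are expression levels that the authors had normalized and rounded to whole numbers. They ran from 11 to 9910 with a median of 106 in every one of the 12 libraries, with 687 to 690 distinct values in each. Since these limits were shared by all libraries, 11 need not be a cut-off of expression. Single values can therefore be steps on a shared scale, and the read depth behind them is unknown. Comparisons used log2(value + 1), and a call needed both an adjusted p below 0.05 in limma and a 2-fold difference. Neuronal markers were present, with 13 of 13 listed, and of 10 thalamus markers TCF7L2, LHX9, SLC17A6 and NTNG1 were listed. None of 6 pluripotency markers was listed, although the labels give the cell type as embryonic stem cells. The replicates of the KO group were less alike than the others. Spearman's rho across genes between replicates was 0.821 (day 25) and 0.769 (day 30) in KO, against 0.936 to 0.959 in the other 4 groups. KO day 30 replicate 2 was least like the remaining libraries (median rho 0.745).

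The targeted gene was examined first. JUN (chromosome 1, 58776845 to 58784048) had values of 139 and 153 in the WT libraries at day 25 and of 128 and 162 at day 30. In the libraries labelled KO, JUN read 353 and 196 at day 25 and 222 and 248 at day 30. It read 224 and 212 in OE at day 25 and 362 and 202 at day 30. Every library labelled KO lay above every WT library, by 0.85 on the log2 scale at day 25 (SE 0.323, adjusted p = 0.294, limma) and by 0.70 at day 30 (SE 0.323, adjusted p = 0.643), and neither difference was called. The libraries labelled KO and OE overlapped at both days. The transcript level of the targeted gene thus goes against the label. The position of the edit is not given in the labels and a transcript level does not measure the protein, so these values do not show whether c-JUN was lost, and KO and OE below mean the libraries labelled so.

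SEMA6A read 536 and 540 in the 2 WT libraries at day 25. In the libraries labelled KO it read 209 and 180, and in the OE libraries 386 and 381. The 3 groups lay apart from each other at this day, with OE between KO and WT. At day 30 the values were 349 and 326 in WT, 314 and 318 in the libraries labelled KO, and 328 and 312 in OE. All 6 libraries of day 30 therefore fell within 312 to 349, a range that no library of day 25 entered.

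**Figure D1:**
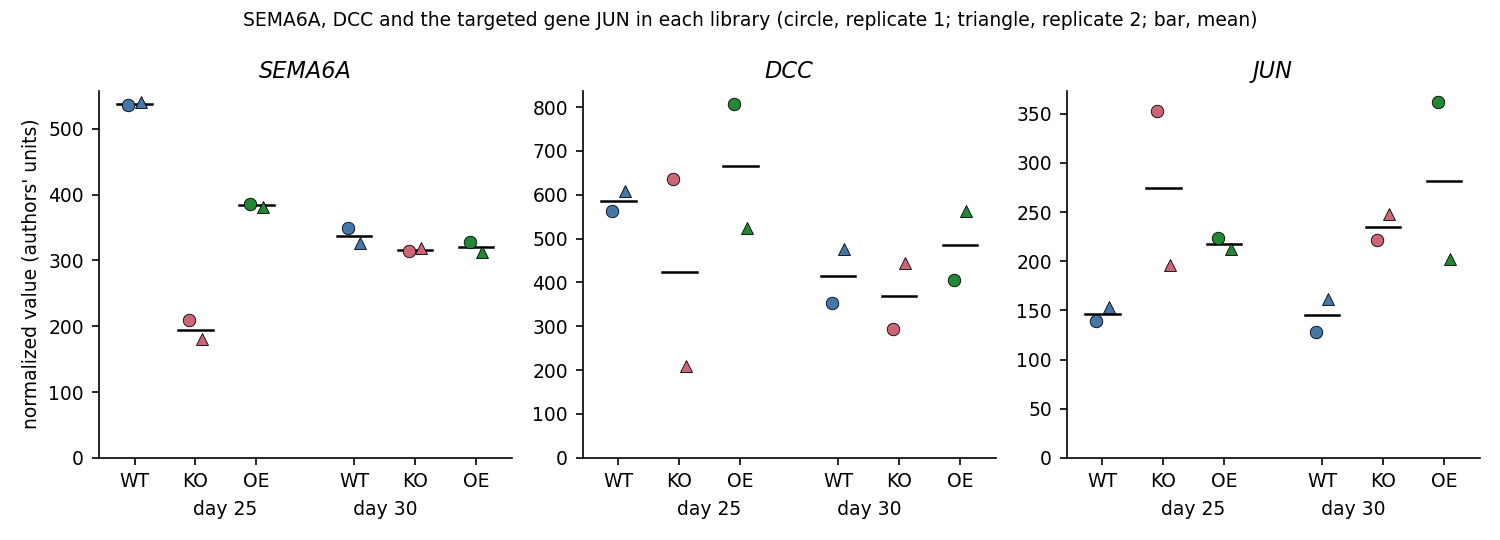
Normalized value of SEMA6A, DCC and JUN (vertical axes, the authors' units, from 0) in each of the 12 libraries by group and day, with circles for replicate 1, triangles for replicate 2 and bars for the mean of the 2. SEMA6A replicates lie close together, from 180 to 209 in KO and 536 to 540 in WT at day 25 and from 312 to 349 in all groups at day 30, while the DCC replicates of KO at day 25 are 637 and 210.

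The means of SEMA6A at day 25 were 538 ± 2.83 (SD, n = 2) in WT, 194.5 ± 20.5 (SD, n = 2) in the libraries labelled KO and 383.5 ± 3.54 (SD, n = 2) in OE. KO was lower than WT by a log2 difference of -1.47, or 2.76-fold. OE was higher than KO by 0.98 and lower than WT by 0.49, as a log2 difference of -0.49. These 3 values all use libraries that chose the gene, and they are given with no test. The comparison of KO with WT at day 25 called 0.0105% of all 9497 genes, from which nothing is read for SEMA6A. With single libraries left out, the difference of SEMA6A between KO and WT ran from -1.574 to -1.360.

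Cell type markers were summed in the same libraries of day 25. The summed value of the neural progenitor markers (8 of 11 listed: SOX2, NES, VIM, HES1, PAX6, NOTCH1, MKI67 and TOP2A) was 7588 to 13921 in WT, 4198 to 6474 in the libraries labelled KO and 7620 to 8406 in OE. It was 5965 to 7761 over the 6 libraries of day 30. At day 25, WT replicate 2 (7588), KO replicate 1 (6474) and OE replicate 1 (7620) fell within that range, with SEMA6A at 540, 209 and 386. These like sums do not match the libraries for progenitors, since VIM weighed most, at 3452, 3456 and 3452. MKI67 read 504, 220 and 536 in the same order. TOP2A, SOX2, HES1, NES and NOTCH1 were also lowest in that KO library, while PAX6 was highest there (533, 570 and 410). The WT sum of 13921, in replicate 1, included VIM at 9910, beside 3452 in WT replicate 2. The summed neuronal markers were 7785 to 9059 in WT, 9406 to 12330 in KO and 9863 to 10001 in OE at day 25. COL1A2, the 1 mesenchyme marker listed of 6, read 195 to 198 in WT, 352 to 734 in KO and 78 to 132 in OE. PDGFRA, the 1 marker of the oligodendrocyte lineage listed of 4, read 98 to 120 in WT, 56 to 140 in KO and 40 to 76 in OE. The thalamus markers overlapped, with sums of 458 to 600 in WT, 480 to 781 in KO and 470 to 1101 in OE. The part of these markers in the SEMA6A values was not tested, and in bulk RNA fewer cells of a type and less RNA per cell cannot be told apart.

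At day 30 the group means of SEMA6A came from libraries that had not chosen it. The spread in the fit, and with it the intervals and adjusted p, still drew on the WT and KO libraries of day 25. The means of SEMA6A at day 30 were 337.5 ± 16.3 (SD, n = 2) in WT, 316 ± 2.83 (SD, n = 2) in the libraries labelled KO and 320 ± 11.3 (SD, n = 2) in OE. Both KO libraries lay just under both WT libraries, and the log2 difference was -0.09 (SE 0.173, 95% interval -0.47 to 0.29, adjusted p = 0.87, limma). In this comparison 0 of the 9497 genes were called, or 0%, while 2.94% (279 genes) passed the same fold with an unadjusted p under 0.05. OE differed from KO by 0.02 (95% interval -0.36 to 0.40, adjusted p = 0.977) and from WT by -0.08 (95% interval -0.46 to 0.30, adjusted p = 1), with overlapping libraries in both cases. These intervals leave out a 2-fold difference in either direction, which is less than the 2.76-fold gap described at day 25. Their width rests partly on the libraries that chose the gene. Without KO day 30 replicate 2 the difference between KO and WT was -0.103.

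Between the days SEMA6A differed in opposite directions by group. It was lower at day 30 than at day 25 in WT, by a log2 difference of -0.67, and higher in the libraries labelled KO, by 0.70. The libraries of the 2 days did not overlap in either group. A choice by low KO and high WT values at day 25 favours these opposite directions, so nothing is read from them. In OE it was lower by 0.26 at day 30, with a log2 difference of -0.26 (SE 0.173, 95% interval -0.64 to 0.12, adjusted p = 1, limma), again with no overlap between the days. The OE difference was the only one of the 3 that could be tested, and it did not pass. The spread in that test also drew on the libraries that chose the gene. In order of mean, the groups ran from WT at day 25 through OE at day 25, WT at day 30, OE at day 30 and KO at day 30 to KO at day 25. In this order the libraries of neighbouring groups overlapped only among the 3 groups of day 30.

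DCC read 564 and 609 in WT at day 25, and 808 and 525 in OE. In the libraries labelled KO it read 637 in replicate 1 and 210 in replicate 2. Thus 1 KO library lay above both WT libraries and the other was the lowest of all 12. At day 30 DCC read 354 and 476 in WT, 293 and 444 in the libraries labelled KO, and 406 and 564 in OE, and the 3 groups overlapped.

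The means of DCC at day 25 were 586.5 ± 31.8 (SD, n = 2) in WT, 423.5 ± 302 (SD, n = 2) in the libraries labelled KO and 666.5 ± 200 (SD, n = 2) in OE. The log2 difference between KO and WT at day 25 was -0.68, given with no test since it comes from the comparison that chose SEMA6A. This difference rested on KO day 25 replicate 2, without which it was 0.120, and it was -1.476 without KO day 25 replicate 1. KO day 25 replicate 2 also had a high sum of the roof plate and choroid plexus markers (10 of 11 listed). It was 6076 against 2326 in the other KO library of that day. OE day 25 replicate 1, with the highest DCC value, had a sum of 6143, but from other markers in part. There TTR read 3452 and RSPO2 1606, while CLIC6 read 156 and FOLR1 24. In KO at day 25, TTR, CLIC6 and FOLR1 read 3453, 364 and 346 in replicate 2 against 541, 50 and 40 in replicate 1. MSX1 and LMX1A were also higher in replicate 2, RSPO2 and WNT8B were nearly equal, and LMX1B, KRT8 and KRT18 were lower. The part of these markers in the DCC values was not tested.

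The mean of OE exceeded that of KO in DCC at day 25 by 0.83 (SE 0.433, 95% interval -0.12 to 1.78, adjusted p = 0.344, limma), with overlapping libraries. Of all genes, 0.274% (26 genes) were called in this comparison, and DCC was not among them. Without KO day 25 replicate 1 the difference was 1.628 and was called (adjusted p = 0.0406), and without KO day 25 replicate 2 it was 0.032 (adjusted p = 0.973), so the choice between these 2 libraries decided it. Against WT, OE differed by 0.15 at day 25 (95% interval -0.80 to 1.10, adjusted p = 1), where 0 genes were called and 1.57% (149 genes) passed the unadjusted rule.

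At day 30 the means of DCC were 415 ± 86.3 (SD, n = 2) in WT, 368.5 ± 107 (SD, n = 2) in KO and 485 ± 112 (SD, n = 2) in OE. KO differed from WT by -0.19 (SE 0.433, 95% interval -1.14 to 0.76, adjusted p = 0.899, limma), and the sign turned to 0.113 without KO day 30 replicate 1 and to 0.027 without WT day 30 replicate 2. OE differed from KO by 0.41 (95% interval -0.54 to 1.36, adjusted p = 0.712), in a comparison that called 0.0842% of all genes, and from WT by 0.22 (95% interval -0.73 to 1.17, adjusted p = 1), in one that called 0.0316% (1.44% by the unadjusted rule). Intervals this wide include a 2-fold difference in at least one direction in each of these comparisons.

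Across days, DCC was lower at day 30 in WT, where the libraries did not overlap, with a log2 difference of -0.51 (95% interval -1.46 to 0.44, adjusted p = 1, limma). In OE the difference was -0.44 (95% interval -1.39 to 0.51, adjusted p = 1) and in KO -0.02 (95% interval -0.97 to 0.93, adjusted p = 0.993). The value in KO turned to 0.778 when replicate 1 of day 25 was left out and to 0.278 when replicate 1 of day 30 was, and became -0.819 when replicate 2 of day 25 was left out. No gene was called between the days in any of the 3 groups, and 1.17%, 5.42% and 0.727% of all genes passed the unadjusted rule in WT, KO and OE. By mean, DCC was ordered OE at day 25, WT at day 25, OE at day 30, KO at day 25, WT at day 30 and KO at day 30, and each group overlapped or touched its neighbour in this order.

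**Figure D2:**
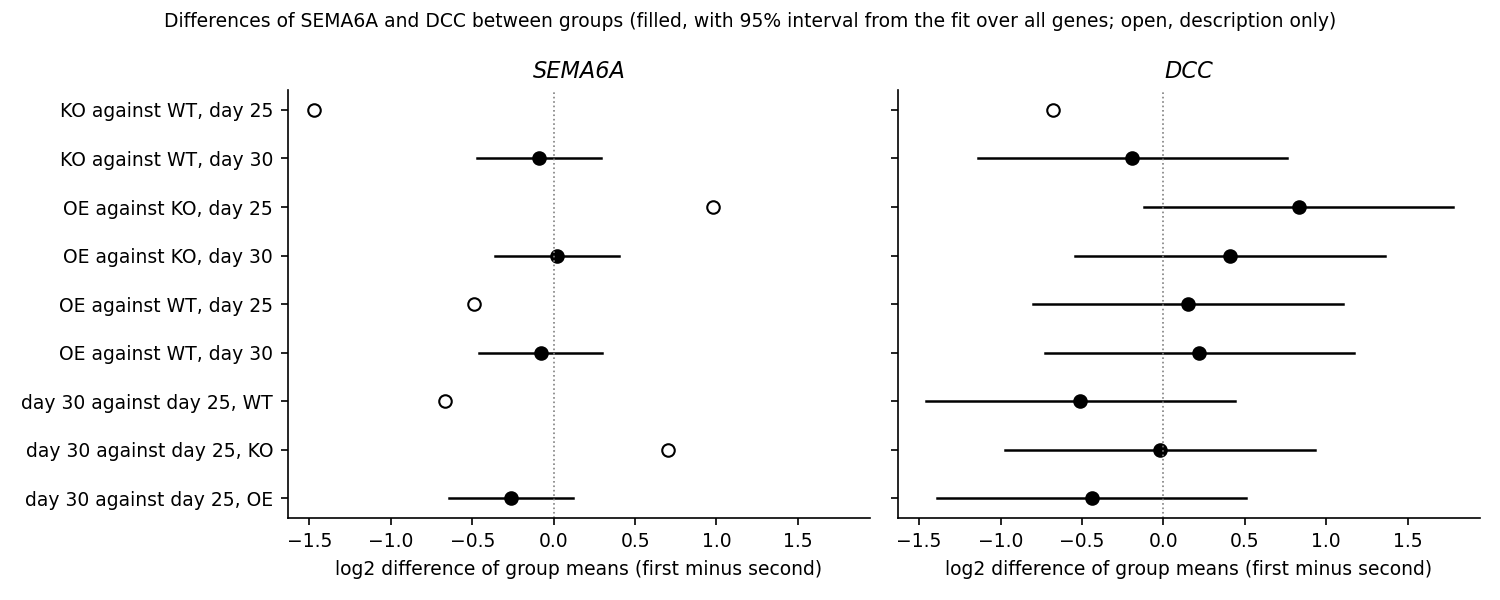
Log2 difference of SEMA6A and DCC (horizontal axes) in the 9 comparisons, with lines for the 95% interval of the fit across all genes and open points for differences that are described with no interval. The SEMA6A intervals at day 30 stay within -0.47 and 0.40, while those of DCC reach from -1.46 to 1.78.

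Replicates of a group matched closely for SEMA6A and less so for DCC. The within-group SD of SEMA6A was 0.072 on the log2 scale, at the 0.337th percentile of all genes, and that of DCC was 0.556, at the 86.2nd percentile, with a median of 0.331 over all genes. The SD of SEMA6A includes the WT and KO libraries of day 25 that chose it. A choice by that difference can favour a gene whose replicates agree, so nothing is read from its percentile. Since the fit took a single spread for each gene over the 6 groups, the intervals understate the error of groups less alike than the rest, such as KO.

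SEMA6A and DCC were then compared with each other over the libraries. On the log2 scale Pearson's r was 0.517 over the 12 libraries and Spearman's rho 0.413, given as a description with no test, since the libraries that chose SEMA6A are among them. Without the 2 libraries farthest from the median of SEMA6A (WT day 25 replicate 2 and KO day 25 replicate 2), r was 0.0683 and rho 0.128 over 10 libraries, so the relation rested on those libraries. With the group means removed, r was 0.607 and rho 0.441, and these points share the libraries of 6 groups.

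**Figure D3:**
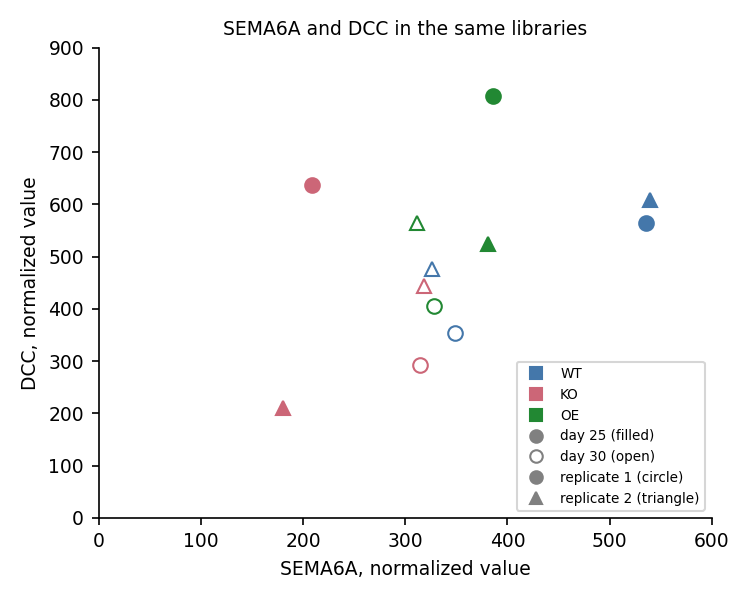
DCC (vertical axis) against SEMA6A (horizontal axis) in the 12 libraries, both as the authors' normalized values from 0, coloured by group, filled for day 25 and open for day 30. The libraries of day 30 form a narrow band in SEMA6A from 312 to 349 over DCC values from 293 to 564, and KO day 25 replicate 2 is lowest on both axes.

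Genes with the most similar pattern to each of the pair were ranked by Pearson's r over the 12 libraries, as a description. For SEMA6A these included IGF2R (r = 0.945), a receptor that carries IGF2 and lysosomal enzymes to lysosomes, MSL1 (0.905), a scaffold of a histone acetyltransferase complex, JPT2 (0.884) and PLAGL1 (0.873), a zinc finger transcription factor. IGF2R read 256 and 214 in WT, 118 and 107 in KO and 184 and 207 in OE at day 25, and 136 to 162 over the 6 libraries of day 30, which is the layout of SEMA6A. The genes most opposed to SEMA6A were FOXRED1 (r = -0.951), an assembly factor of mitochondrial complex I, SEC24C (-0.910), a coat protein of transport vesicles, and DDX49 (-0.908), an RNA helicase. FOXRED1 read 44 and 50 in WT, 128 and 126 in KO and 55 and 60 in OE at day 25, and 61 to 75 at day 30. For DCC the most similar genes were DDR1 (0.902), a collagen receptor, AGRN (0.896), the proteoglycan agrin, PTPRS (0.889), a receptor phosphatase that binds proteoglycans on axons, PRKDC (0.880), a DNA repair kinase, and DCUN1D2 (0.877). PTPRS read 2090 in both WT libraries and 1879 and 1080 in the KO libraries of day 25, with the lower value in the KO library that was low in DCC. FOLR1 (-0.907), a folate receptor and one of the choroid plexus markers above, TRAM1 (-0.888) and SPATA17 (-0.882) were most opposed to DCC. FOLR1 read 346 in KO day 25 replicate 2 and 40 in the other KO library of that day.

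The family of SEMA6A and its receptors were listed in full, with SEMA6B, SEMA6C, SEMA6D and PLXNA1 to PLXNA4. None of these 7 genes was called in any of the 9 comparisons, beside 0% to 0.274% of all genes. None passed the unadjusted rule of p under 0.05 and 2-fold, which 0.727% to 8.57% of all genes passed. At day 25 PLXNA1 read 542 and 428 in WT and 422 and 314 in KO, a log2 difference of -0.40 (adjusted p = 0.441, limma). PLXNA3 read 244 and 178 in WT and 153 and 118 in KO, a difference of -0.63 (adjusted p = 0.421). PLXNA1 and PLXNA3 also lay lower in both KO libraries than in both WT libraries at day 30, by -0.37 and -0.65 (adjusted p = 0.646 and 0.643).

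The receptors best known to bind SEMA6A were placed differently. PLXNA4 read 96 and 84 in WT against 253 and 112 in KO at day 25, a difference of 0.90 (adjusted p = 0.484, limma), and at day 30 its KO libraries read 84 and 229 beside 58 and 90 in WT. PLXNA2 read 120 in both WT libraries and 104 and 129 in KO at day 25, a difference of -0.05 (adjusted p = 0.976). Of the other class 6 semaphorins, SEMA6B read 133 and 96 in WT against 114 and 55 in KO at day 25. SEMA6C read 192 and 188 against 204 and 115, and SEMA6D 150 and 82 against 186 and 86, so that WT and KO overlapped in each case. The median log2 difference over the 7 genes was -0.31 at day 25 and 0.29 at day 30, beside -0.02 and -0.00 over all genes. Of the 22 listed genes of semaphorin signalling (neuropilins, collapsin response mediators, cofilin and its kinases among them), none was called in any comparison, beside 0% to 0.274% of all genes. VASP passed the unadjusted rule at day 30 in KO against WT and in OE against KO, beside 2.94% and 5.38% of all genes. RND1, LIMK2 and CDK5R1 passed it between the days in KO, beside 5.42%.

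The ligands and relatives of DCC gave 1 call. Of 14 genes in this list 9 were listed, among them DCC itself, while NTN1, NTN3, NTN4, NTN5 and UNC5A were not analysed here. Over the 8 genes without DCC, the median log2 difference of KO from WT was -0.51 at day 25 and -0.49 at day 30, and that of OE from KO was 0.67 and 0.70, beside medians of all genes between -0.02 and 0.03. Only RGMB passed the test among these 8, in OE against KO at day 25. The comparisons of KO with WT and of OE with KO share the KO libraries, and these differed. At day 25 UNC5B, UNC5C, UNC5D and DSCAM read above both WT libraries in KO replicate 1, NEO1 between them and the others below. In KO replicate 2 UNC5D read above both WT libraries, DSCAM between them and the others below. At day 30 RGMA, NEO1 and DSCAM read above both WT libraries in KO replicate 1, UNC5B between them and the others below. In KO replicate 2 of day 30 all 8 read below both WT libraries.

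RGMB, a membrane-anchored ligand of neogenin, read 157 and 274 in WT, 64 and 84 in KO and 255 and 345 in OE at day 25. The KO libraries lay below all the others of that day. RGMB was higher in OE than in KO by 2.00 (SE 0.308, adjusted p = 0.0439, limma), a 4-fold difference, in a comparison that called 0.274% of all genes. The call was lost when only the 4 libraries compared entered the fit (adjusted p = 0.205), with library weights (0.121), and without OE day 25 replicate 1 (0.22) or replicate 2 (0.251). Between KO and WT at day 25 RGMB differed by -1.49 (SE 0.308, adjusted p = 0.171), and at day 30, with 255 and 294 in WT and 176 in both KO libraries, by -0.63 (adjusted p = 0.643).

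DRAXIN, a secreted ligand of DCC, read 496 and 501 in WT, 303 and 132 in KO and 608 and 505 in OE at day 25. At day 30 it read 415 and 446 in WT, 366 and 114 in KO and 640 and 480 in OE. At both days both KO libraries lay below all WT and OE libraries. The log2 difference of KO from WT was -1.31 (SE 0.473, adjusted p = 0.275, limma) at day 25 and -1.07 (SE 0.473, adjusted p = 0.643) at day 30. The difference of OE from KO was 1.47 (adjusted p = 0.144, limma) and 1.43 (adjusted p = 0.388). These differences passed an unadjusted p under 0.05 and 2-fold but were not called. The lowest value at each day came from KO replicate 2. Without KO day 25 replicate 2 the difference of KO from WT was -0.72 at day 25, and without KO day 30 replicate 2 it was -0.23 at day 30. The difference of OE from KO was 0.87 and 0.60 without the same libraries.

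The remaining receptors and RGMA did not give calls. RGMA read 282 and 130 in WT, 104 and 114 in KO and 204 and 314 in OE at day 25, and the difference of OE from KO was 1.21 (adjusted p = 0.132, limma). NEO1 read 476 and 409 in WT and 410 and 252 in KO at day 25, a difference of -0.46 (adjusted p = 0.551). UNC5B, UNC5C and UNC5D are receptors of the repulsive netrin response. UNC5B read 136 and 48 in KO and 281 and 202 in OE at day 30, a difference of 1.55 (adjusted p = 0.411) that was 0.80 without KO day 30 replicate 2. UNC5C read 98 and 94 in WT and 74 and 21 in KO at day 30, a difference of -1.26 (adjusted p = 0.643) that was -0.37 without the same library. UNC5D read 136 in both KO libraries at day 25 and 50 and 66 at day 30, a difference of -1.23 between the days (adjusted p = 0.258, limma). DSCAM, another netrin receptor, was low throughout, with values from 16 to 87.

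**Figure D4:**
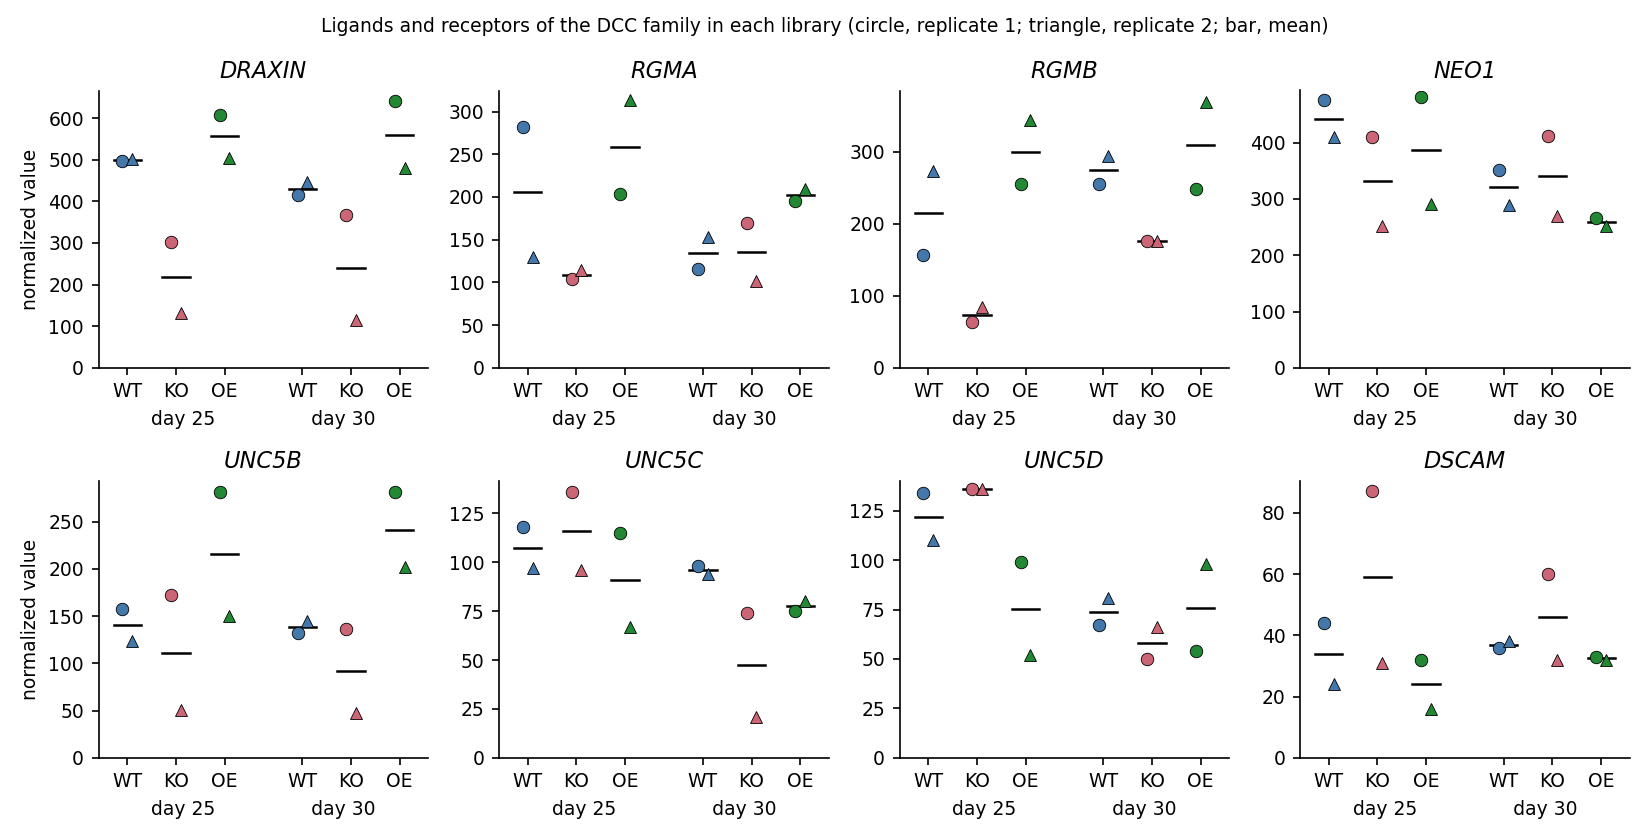
Normalized values (vertical axes, from 0, each with its own scale) of the 8 listed ligands and relatives of DCC in the 12 libraries, with circles for replicate 1, triangles for replicate 2 and bars for the mean of the 2. DRAXIN and RGMB are lowest in both KO libraries at each day, at 303 and 132 and at 64 and 84 on day 25, while UNC5B and DSCAM overlap between WT and KO.

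The lists of SEMA6A and DCC ligands, receptors and signalling proteins and of thalamocortical projection genes held 97 genes, of which 81 were listed besides the pair. At day 25, 0 of the 81 were called between KO and WT and 4 (4.94%) passed the unadjusted rule, beside 5.31% of all genes. At day 30, 0 were called and 6 (7.41%) passed it, beside 2.94%. Between OE and KO, 2 were called at day 25, RGMB and GAP43, beside 0.274% of all genes called. In the same comparison 11 (13.6%) passed the unadjusted rule, beside 8.57% of all genes. At day 30, 0 were called and 11 (13.6%) passed it, beside 5.38%. These counts moved with single libraries. Without KO day 30 replicate 1, the share passing the unadjusted rule at day 30 rose for KO against WT and for OE against KO. It rose among all genes as well as among the 81, so the rise was not particular to the guidance genes. Without KO day 30 replicate 2, 0 were called in either comparison, and the shares were 2.47% beside 0.937% for KO against WT and 4.94% beside 1.48% for OE against KO. The share for KO against WT at day 30 was 3.7% beside 2.95% without WT day 30 replicate 1 and 2.47% beside 1.18% without WT day 30 replicate 2, and that for OE against KO was 6.17% beside 2.83% without OE day 30 replicate 2. At day 25, leaving out KO day 25 replicate 1 raised the shares for KO against WT and for OE against KO, again among the 81 and among all genes. Leaving out KO day 25 replicate 2 raised both shares for KO against WT. For OE against KO it raised only the share of all genes. When OE day 25 replicate 1 or replicate 2 was left out, 0 of the 81 were called between OE and KO.

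GAP43, a growth cone protein and also one of the neuronal markers above, read 442 and 629 in WT, 926 and 898 in KO and 361 and 412 in OE at day 25. Both KO libraries lay above all others of that day. GAP43 was lower in OE than in KO, with a log2 difference of -1.24 (SE 0.202, adjusted p = 0.0439, limma), or 2.36-fold. This call was lost with only the 4 libraries compared (adjusted p = 0.205), with library weights (0.121), and without OE day 25 replicate 1 (0.245), OE day 25 replicate 2 (0.199) or KO day 25 replicate 2 (0.0507). At day 30 GAP43 read 898 and 808 in WT, 1332 and 1014 in KO and 734 and 808 in OE, and the difference of OE from KO was -0.59 (adjusted p = 0.398).

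Several cues of the thalamocortical path passed the unadjusted rule without being called. SLIT1, a secreted repellent for ROBO receptors, read 158 and 206 in WT, 86 and 36 in KO and 374 and 355 in OE at day 30. OE exceeded KO by 2.69 (SE 0.443, adjusted p = 0.0592, limma), and KO differed from WT by -1.68 (adjusted p = 0.643), or by -1.06 without KO day 30 replicate 2. The ephrin receptors EPHA3 and EPHA7 stood on opposite sides. EPHA3 read 240 and 239 in WT, 325 and 114 in KO and 1608 and 678 in OE at day 30. OE exceeded KO by 2.43 (adjusted p = 0.0886, limma) and WT by 2.12 (adjusted p = 0.336), and the KO libraries lay on either side of WT. EPHA7 read 1084 and 898 in WT, 2674 and 2672 in KO and 564 and 486 in OE at day 30, and OE differed from KO by -2.35 (adjusted p = 0.117).

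At day 25 the adhesion and receptor genes CNTN2, ERBB4 and FLRT2 were lower in one or both KO libraries. ERBB4, the neuregulin receptor, read 588 and 525 in WT, 326 and 128 in KO and 767 and 629 in OE, and OE exceeded KO by 1.76 (SE 0.388, adjusted p = 0.0695, limma). CNTN2, an axonal adhesion molecule, read 789 and 877 in WT, 877 and 249 in KO and 1466 and 1880 in OE, and OE exceeded KO by 1.83 (adjusted p = 0.106). Without KO day 25 replicate 2 the difference of OE from KO was 1.09 in ERBB4 and 0.92 in CNTN2. FLRT2, a ligand of UNC5 receptors, read 200 and 154 in WT, 33 and 68 in KO and 218 and 101 in OE, and KO differed from WT by -1.87 (adjusted p = 0.203). SLIT1 at day 25 exceeded KO in OE by 1.53 (adjusted p = 0.117), and PAK1 and ABLIM1, which act on the cytoskeleton, differed between OE and KO by 1.11 and -1.33 (adjusted p = 0.235 and 0.106). At day 30 TRIM67, a DCC-binding ubiquitin ligase, differed between OE and KO by 1.45, NTNG2, a membrane-anchored netrin relative, by -1.55 and VASP, an actin regulator, by -1.08, none of them called. The difference of TRIM67 was 0.43 without OE day 30 replicate 2, and that of NTNG2 was -0.97 without KO day 30 replicate 2.

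**Figure D5:**
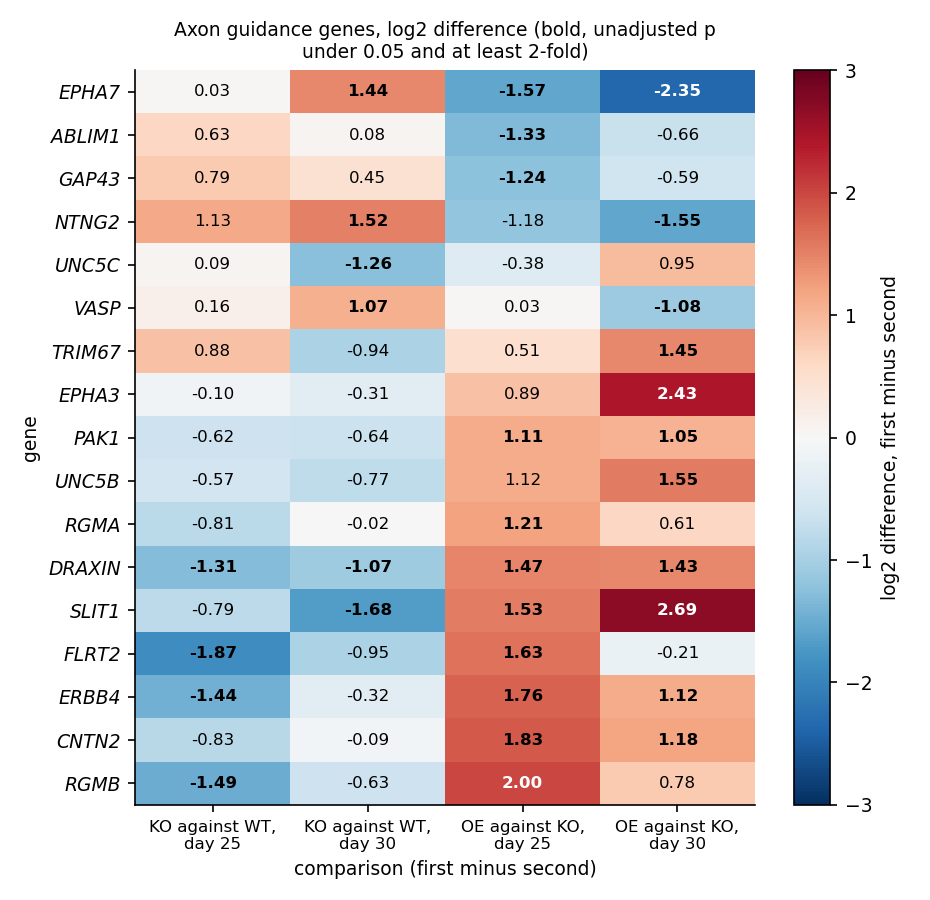
Log2 difference (colour and number) of the axon guidance genes that passed an unadjusted p under 0.05 and 2-fold in at least 1 of 4 comparisons (columns), with bold numbers where they did so, in order of OE against KO at day 25. DRAXIN is bold in all 4 columns, at -1.31, -1.07, 1.47 and 1.43, and of the values shown only those of RGMB (2.00) and GAP43 (-1.24) in OE against KO at day 25 were called after adjustment.

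The AP-1 motifs were also counted before the starts of the guidance genes, as a description. TGANTCA occurred in the 250 bases before a start of BCAR1, RGMB, TRIM67 and TUBB3, 4 of 79 guidance genes with an entry (5.06%), beside 8.06% of all 27305 genes. TGACGTCA occurred before 2 of them (2.53%, beside 2.03%) and TGACATCA before 4 (5.06%, beside 2.91%).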

How the data were processed

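RNA-seq was performed on 12 libraries of ThOs, 6 groups of 2. The authors deposited 1 table per library with a normalized expression score for each gene, rounded to whole numbers. How reads were counted and normalized is not given in the sources used here. The submitters' processing notes name bcl2fastq, RSEM, Bowtie2 and hg19, with no role, whereas the positions were on GRCh38: the 9386 symbols found in RefSeq GRCh38.p14 all overlapped it. Depth is unknown, so no counting interval was given.

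The values were taken as log2(value + 1), and limma 3.58.1 (R 4.3.3) was used. A minimum value of 1 in 2 libraries removed 0 genes. One model with 6 group means (6 residual and 5.29 prior degrees of freedom, intensity trend) was fitted, with Benjamini-Hochberg adjustment across the 9497 genes of each comparison. Every adjusted p of a gene is two-sided and from limma. Steps were tested on simulated data.

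The members and lists were chosen with earlier results of these data known. Named genes were the pair, JUN, every listed gene of the SEMA6A and DCC families, called genes of the other guidance lists, up to 5 genes per direction and comparison at an unadjusted p under 0.05 and 2-fold without overlap, the 5 most and 3 least correlated genes (1 of these is not reported here), and the 3 lowest p at day 25, which are not described since that comparison chose SEMA6A. Alternatives were other pseudocounts, filters, normalizations, library weights, a block for the replicate number, fits restricted to the 4 libraries compared, and leaving out single libraries. For RGMB, GAP43 and the guidance counts they were added after the data were seen.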

Additional observations from a re-analysis of the deposited data

Results flagged for a closer look

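The day effect of SEMA6A differed between groups in direction. From day 25 to day 30 both WT libraries read lower at day 30 and both libraries labelled KO higher, and the difference of the 2 day effects, KO minus WT, was 1.37 on the log2 scale. Both OE libraries read lower at day 30, and the difference of the day effects, OE minus KO, was -0.96. Neither difference was tested, since SEMA6A was chosen on the WT and KO libraries of day 25. That choice by itself favours a fall in WT and a rise in KO by day 30, so nothing is read from either. The values behind them are 536 and 540 against 349 and 326 in WT, 209 and 180 against 314 and 318 in KO, and 386 and 381 against 328 and 312 in OE.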

How the results depend on the processing

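In the comparisons with a test, SEMA6A kept its direction and its side of the threshold in 36 of 36 other settings and in 15 of 16 fits with a library left out, and DCC in 72 of 72 and 25 of 32. In those given with no test, SEMA6A kept its direction in 45 of 45 and 20 of 20. DCC kept its own in 9 of 9 and 3 of 4. The exception was DCC in KO against WT at day 25, 0.120 without KO day 25 replicate 2. Some of these outcomes were fixed in advance. Dropping the filter and median centring could change nothing, since the filter removed 0 genes and every library had a median of 106. Quantile normalization met values that already shared minimum, median and maximum. Nothing is read from the untested SEMA6A counts, which use the libraries that chose it. The exception of SEMA6A among the tested comparisons was OE against KO at day 30, -0.018 without OE day 30 replicate 1 (range -0.018 to 0.054). For DCC, leaving out a library gave 0.027 and 0.113 for KO against WT at day 30 (range -0.485 to 0.113), 0.032 to 1.628 for OE against KO at day 25, -0.158 to 0.463 and -0.016 to 0.457 for OE against WT at days 25 and 30, and -0.819 to 0.778 (with 0.278) for day 30 against day 25 in KO. The call of DCC was gained without KO day 25 replicate 1 (1.628). The correlation of the pair was 0.517, 0.068 without the 2 farthest libraries and 0.607 with group means removed.

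The counts of called genes moved more. KO against WT gave 1 gene at day 25, 0 with library weights and 0 to 34 with a library left out, and 0 genes at day 30, up to 1078 without KO day 30 replicate 1. OE against KO gave 26 at day 25 (1 with weights, 0 with only the libraries compared, 0 to 290) and 8 at day 30 (1, 0, and 0 to 1441). OE against WT gave 0 at day 25 (4 with weights, 0 to 4) and 3 at day 30 (52 with weights, 6 with only the libraries compared, 0 with any library left out). Between the days, 0 genes were called in each group, 0 to 2 in WT and 1 to 938 in KO with a library left out, 1 in KO with only the libraries compared and 1 in OE with weights. The causes were not tested.

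The replicate numbers did not pair the samples: of 15 pairs of groups 1 had a correlation of deviations over 0.1, with a range of -0.21 to 0.26. With the replicate block, DCC in OE against KO at day 25 was 0.830 (adjusted p = 0.38) and no call of either gene changed in the tested comparisons. The block gave 0, 8, 13 and 1 called genes in place of 1, 26, 8 and 0 for KO against WT at day 25, OE against KO at days 25 and 30 and OE against WT at day 25, and the adjusted p of GAP43 was 0.0672. Count models were not run, since the values are not counts, and depth limits could not be given.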
